A study of Mus musculus with 6 samples.

Results

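The interleukin-1 (IL-1) family of cytokines and receptors was examined in colonic epithelial cells of mice that had lost Nr3c1, the gene of the glucocorticoid receptor, from the intestinal epithelium. The family was taken as 10 genes given by symbol, the ligand genes Il1a, Il1b, Il18, Il33, Il36a and Il36g, the antagonist gene Il1rn and the receptor genes Il1r1, Il1r2 and Il1rap. All 10 were found among the 23725 genes of the table. The 3 knockout libraries came from C57BL/6J mice of genotype B6-Cg-Nr3c1-Vil-Cre/ERT2 (Nr3c1IEC-/-), in which a Cre recombinase activated by tamoxifen is driven by the villin promoter of intestinal epithelial cells. The 3 wild-type libraries came from C57BL/6J mice labelled only as wild type. All animals of both groups received tamoxifen into the peritoneum daily for 5 days, and their colonic epithelial cells were enriched on a Percoll gradient on day 7, counted from the first dose, without culture. The labels give neither the animals' age nor the deleted exon of Nr3c1, and leave unsaid if wild-type mice had the transgene. An effect of Cre with tamoxifen and an effect of receptor loss therefore cannot be told apart.

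Cytokines of this family are among the earliest signals of a damaged or inflamed epithelium. IL-1 alpha and IL-1 beta bind the receptor IL1R1, which recruits the co-receptor IL1RAP and signals through MyD88, the IRAK kinases and TRAF6 to NF-kB and MAP kinases. The system carries its own brakes, since the antagonist IL1RN occupies IL1R1 without signalling and IL1R2 is a decoy that binds IL-1 but has no signalling domain. IL-18, IL-33 and the IL-36 cytokines use sister receptors, of which those for IL-33 and IL-36 also recruit IL1RAP. Colonic epithelium is a known source of IL-18, and IL-33 is a nuclear protein released from damaged cells. Glucocorticoids are known to lower Il1b transcription in macrophages and, in human neutrophils and monocytes, to raise IL1R2.

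The sequences just upstream of the ligand genes whose level differed between the groups are shown because these genes were higher together in the knockout libraries. Which cells of the preparation held these transcripts was not tested. RefSeq windows on GRCm38.p6, each of 300 bases with 250 before and 50 after a transcription start, were found for 9 of the 10 members, and 13 such windows were searched on both strands. The motifs searched were TATAAA, the TATA box, TGANTCA, the site of the factor AP-1, ACANNNTGT, the core of the palindrome bound by the glucocorticoid receptor, and the NF-kB consensus. Of all 32817 windows of this length in the table, TATAAA was held by 13.6%, TGANTCA by 7.81%, ACANNNTGT by 6.85% and the NF-kB consensus by 4.5%. The windows of Il1a (chr2:129309923-129310222, minus strand), Il1b (chr2:129371090-129371389, minus strand), Il33 at its downstream start (chr19:29945540-29945839, plus strand) and Il36g (chr2:24186226-24186525, plus strand) read as follows, with matches to these motifs in capitals.
Il1a: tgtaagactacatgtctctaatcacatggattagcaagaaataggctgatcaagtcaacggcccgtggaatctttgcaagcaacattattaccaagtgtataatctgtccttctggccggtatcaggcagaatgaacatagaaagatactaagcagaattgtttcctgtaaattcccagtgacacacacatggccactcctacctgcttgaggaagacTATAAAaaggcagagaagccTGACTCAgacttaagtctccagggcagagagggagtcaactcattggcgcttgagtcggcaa
Il1b: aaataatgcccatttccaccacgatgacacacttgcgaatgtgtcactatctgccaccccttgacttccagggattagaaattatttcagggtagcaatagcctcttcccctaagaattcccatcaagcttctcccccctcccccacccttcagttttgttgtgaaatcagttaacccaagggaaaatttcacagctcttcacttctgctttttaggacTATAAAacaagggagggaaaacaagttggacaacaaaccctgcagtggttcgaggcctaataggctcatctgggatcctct
Il33: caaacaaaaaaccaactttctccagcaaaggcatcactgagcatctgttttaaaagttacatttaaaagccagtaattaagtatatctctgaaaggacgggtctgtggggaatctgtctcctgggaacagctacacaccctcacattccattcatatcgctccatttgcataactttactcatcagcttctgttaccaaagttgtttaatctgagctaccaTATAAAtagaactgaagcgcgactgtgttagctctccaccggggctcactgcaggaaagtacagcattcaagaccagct
Il36g: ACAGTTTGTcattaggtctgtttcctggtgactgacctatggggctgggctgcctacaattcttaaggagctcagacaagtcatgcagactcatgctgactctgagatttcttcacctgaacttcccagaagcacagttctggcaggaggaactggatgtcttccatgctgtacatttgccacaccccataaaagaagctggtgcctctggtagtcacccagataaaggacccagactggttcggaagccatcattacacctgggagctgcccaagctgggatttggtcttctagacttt

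A TATA box lay 32 bases before the start of Il1a, 31 before that of Il1b and 29 before the downstream start of Il33. The Il1a window also held TGACTCA, an AP-1 site, 12 bases before the start, and the Il36g window held the receptor palindrome ACAGTTTGT at its far edge, 250 bases before the start. Elsewhere in the family the only matches were an AP-1 site in an Il1rn window, an NF-kB match in an Il1r1 window, and TATAAA or its reverse complement in an Il1rn, the Il18 and the upstream Il33 window. The windows of Il1r2 and Il1rap held none of these letters. No match overlapped another. These are matches of letters, with no binding measured.

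Nr3c1 itself (GRCm38 chromosome 18, 39410545 to 39519421) had 144.7, 123.1 and 174.7 normalized reads in the knockout libraries, against 1120, 967 and 196.7 in the wild-type libraries. At the gene that was targeted, the library labelled wild type replicate 3 does not match its label, and results below are given with and without it where it changes them. With it the log2 change of Nr3c1 was -2.03 (SE 0.60, limma adjusted p = 0.0372), and without it -2.82 (limma adjusted p = 0.000720). Leaving out any other library ended that call, with limma adjusted p from 0.0638 to 0.127. Recovered reads per library ranged from 10089313 to 12030844. Epithelial identity was clear in all libraries, with the epithelial adhesion gene Epcam at 21874, 18255 and 20673 normalized reads in the knockout libraries and 20206, 21527 and 21732 in the wild-type libraries.

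Of the 10 family members, 9 were high enough to be tested. In the knockout libraries 6 rose (Il1a, Il1b, Il1rn, Il1r2, Il33 and Il36g), 1 fell (Il1r1) and 2 missed the threshold (Il18 and Il1rap), while Il36a was too low to be tested. Changes were tested with limma on log2(normalized reads + 1) over 12837 genes with Benjamini-Hochberg adjustment and a threshold of 0.05, by which 15.0% of all tested genes rose and 15.4% fell. The knockout libraries lay wholly above the wild-type libraries for the 6 members that rose, as for 25.2% of all tested genes, and wholly below them for Il1r1, as for 25.5%. The median log2 change of the 9 tested members was 2.58, against 0.01 for all tested genes. Il33 and Il1r2 passed the minimum for testing, 10 normalized reads in at least 3 libraries, only through the knockout libraries, so these members had to differ to be tested. In bulk RNA of a cell preparation, more cells of a type and more RNA per cell cannot be told apart.

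**Figure D1:**
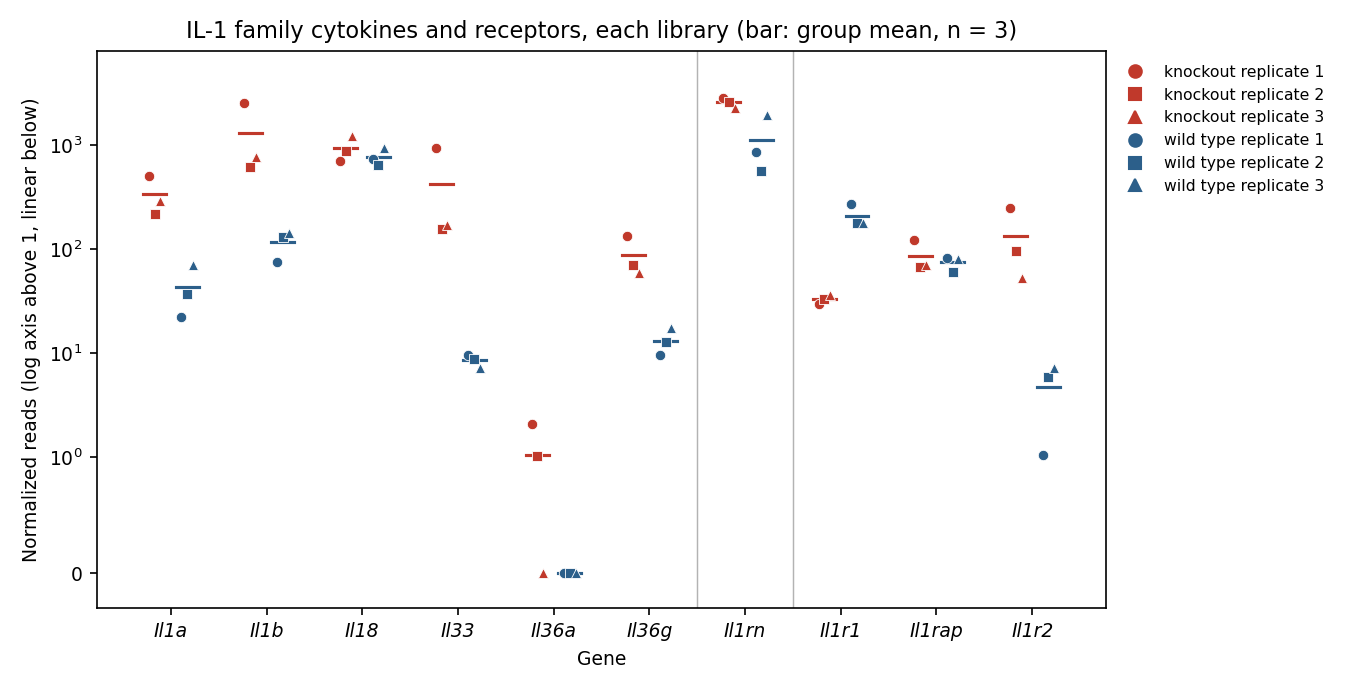
Normalized reads of each family member (y axis, with a scale that is linear near 0 and logarithmic above) in the 3 knockout and 3 wild-type libraries; each point is 1 library and each bar a group mean. The knockout points lie above all wild-type points for 6 members and below them for Il1r1, and knockout replicate 1 is the highest knockout point of all 6 members that rose.

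Both IL-1 agonist genes rose. Il1b, which encodes the secreted agonist IL-1 beta (chromosome 2, 129364569 to 129371164), had 2521, 606 and 756 normalized reads in the knockout libraries, against 75.4, 129 and 144 in the wild-type libraries. Every knockout library lay above every wild-type library, the lowest of them 4.21-fold above the highest wild-type value. The means were 1295 ± 1065 in the knockout and 116 ± 36.1 in the wild type (SD, n = 3 each), a ratio of 11.1. The log2 change was 3.22 (SE 0.51, limma adjusted p = 0.00451).

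Il1a, which encodes the cell-associated agonist IL-1 alpha and lies near Il1b (chromosome 2, 129299609 to 129310186), had 499.0, 218 and 290.2 normalized reads in the knockout libraries and 22.3, 37.2 and 70.1 in the wild-type libraries. The groups did not overlap, and the lowest knockout value was 3.11-fold above the highest wild-type value, that of replicate 3. Mean levels were 336 ± 146 in the knockout and 43.2 ± 24.5 in the wild type (SD, n = 3 each), a ratio of 7.78, and the log2 change was 2.99 (SE 0.44, limma adjusted p = 0.00347). Both agonist genes are overlapped by a gene on the opposite strand (Gm14023 at Il1a and Il1bos at Il1b), whose reads cannot be separated in these non-stranded libraries.

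The spread between knockout libraries was wide for Il1b. Knockout replicate 1 was 4.16-fold above the lowest knockout library for Il1b and 2.29-fold above it for Il1a. Without that library the ratio of means was 5.87 for Il1b and 5.89 for Il1a, and the log2 change was 2.59 for Il1b (limma adjusted p = 0.00110) and 2.67 for Il1a (limma adjusted p = 0.00513). If the library labelled wild type replicate 3 was left out, the change was 3.40 for Il1b (limma adjusted p = 0.0107) and 3.41 for Il1a (limma adjusted p = 0.00297).

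The gene of the alarmin IL-33, Il33 (chromosome 19, 29925113 to 29960718), had the largest change of the family. It had 936, 157 and 169 normalized reads in the knockout libraries, against 9.55, 8.80 and 7.29 in the wild-type libraries. All 3 wild-type libraries, replicate 3 included, were close together and near the bottom of the measurable range, with 26 reads in all against 1222 in the knockout libraries. The lowest knockout library stood 16.5-fold above the highest wild-type library, and within the knockout, replicate 1 was 5.95-fold above the lowest.

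Mean Il33 levels were 421 ± 446 in the knockout and 8.55 ± 1.15 in the wild type (SD, n = 3 each), a ratio of 49.2. The log2 change of 4.95 (SE 0.63, limma adjusted p = 0.00209) was matched or exceeded by only 27 of the 12837 genes tested, Il33 among them. Without knockout replicate 1 the ratio of means was 19.1 and the log2 change 4.11 (limma adjusted p = 0.000197, with the minimum applied to at least 2 libraries, an alternative chosen after seeing the data). The gene of its receptor, Il1rl1 (ST2), was too low to be tested, with 39 reads over the knockout libraries and 13 over the wild-type libraries.

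Of the IL-36 cytokine genes, Il36g rose and Il36a was barely detected. Il36g (chromosome 2, 24186476 to 24193567), a cytokine gene known from keratinocytes and other barrier epithelia, had 132, 70.4 and 58.2 normalized reads in the knockout libraries and 9.55, 12.7 and 17.3 in the wild-type libraries. The groups were separate, with the lowest knockout value 3.37-fold above the highest wild-type value. Means of 86.9 ± 39.6 in the knockout and 13.2 ± 3.898 in the wild type (SD, n = 3 each) gave a ratio of 6.59, and the log2 change was 2.58 (SE 0.37, limma adjusted p = 0.00313).

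Il36a, its neighbour (chromosome 2, 24215417 to 24225701), had 2.10, 1.03 and 0 normalized reads in the knockout libraries and 0 in each wild-type library. That is 3 reads over the knockout libraries and 0 over the wild-type libraries, where a count of 0 allows a level of up to 2.73 to 3.18 normalized reads per library, so no fold can be given. The related ligand gene Il36b had 3 reads in the knockout and 3 in the wild-type libraries. The genes of the IL-36 receptor antagonist, Il36rn, and of IL-38, Il1f10, had none in any library. The IL-36 receptor gene Il1rl2 had 12 reads over the knockout libraries and 17 over the wild-type libraries, too few to be tested.

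The IL-18 gene, Il18 (chromosome 9, 50554700 to 50581841), did not pass the threshold. It had 702, 882 and 1225 normalized reads in the knockout libraries and 728, 638 and 931 in the wild-type libraries, so the groups overlapped. Its means were 936 ± 266 in the knockout and 765 ± 150 in the wild type (SD, n = 3 each), and the log2 change of 0.27 had a 95% interval of -0.24 to 0.79 (limma adjusted p = 0.375). A change of about the size seen for Il1a or Il33 lies outside that interval.

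Among the genes that act on IL-18, Il18rap passed the threshold and Il18bp came near it. Il18bp, the secreted protein that neutralizes IL-18, had 252, 64.2 and 120 normalized reads in the knockout libraries and 27.6, 25.4 and 75.6 in the wild-type libraries, overlapping only through wild type replicate 3, and it missed the threshold (log2 change 1.70, interval 0.39 to 3.01, limma adjusted p = 0.0546). It passed without wild type replicate 3 (log2 change 2.20, limma adjusted p = 0.0276), without knockout replicate 2 (2.18, limma adjusted p = 0.0258) and with DESeq2 (adjusted p = 0.00675). Il18rap, the accessory chain of the IL-18 receptor, rose, with 40.9, 13.5 and 11.5 normalized reads in the knockout libraries and 0, 0 and 0.911 in the wild-type libraries (limma adjusted p = 0.00435). These were 64 reads over the knockout libraries against 1 over the wild-type libraries, a ratio of 66.0 after library size with an exact 95% interval of 11.4 to 2649 for counting error only. Its partner chain Il18r1 averaged 13.8 ± 9.47 in the knockout and 11.9 ± 3.13 in the wild type (SD, n = 3 each, limma adjusted p = 0.966).

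The antagonist gene Il1rn (chromosome 2, 24336860 to 24351491) had 2796, 2605 and 2281 normalized reads in the knockout libraries, against 862, 565 and 1933 in the wild-type libraries. The knockout libraries were close together, while wild type replicate 3 lay far above the other wild-type libraries and only 1.18-fold below the lowest knockout library. The means of 2561 ± 260 in the knockout and 1120 ± 719 in the wild type (SD, n = 3 each) gave a ratio of 2.29, and the log2 change was 1.38 (SE 0.39, limma adjusted p = 0.0327).

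Among the members that rose, Il1rn had the smallest change and the least stable call. Without wild type replicate 3 its log2 change was 1.87 (limma adjusted p = 0.00268). The call was lost when any one of the other libraries was left out, with limma adjusted p from 0.0634 to 0.109, and with edgeR on the recovered reads (adjusted p = 0.0575), which called 14.7% of genes higher, while DESeq2, which called 16.7% higher, gave an adjusted p of 0.00660.

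Receptor genes moved in opposite directions. The signalling receptor gene Il1r1 (chromosome 1, 40222480 to 40316201) was the single member that fell. It had 29.4, 33.1 and 36.3 normalized reads in the knockout libraries and 271, 179 and 178.5 in the wild-type libraries. Here the library labelled wild type replicate 3 lay with the other wild-type libraries, at the same level as replicate 2, and the knockout libraries differed from one another by only 1.24-fold. The means were 32.9 ± 3.47 in the knockout and 209 ± 53.1 in the wild type (SD, n = 3 each), 6.36-fold lower in the knockout. The log2 change of -2.61 (SE 0.22, limma adjusted p = 0.000562) had the smallest adjusted p of the family.

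The decoy receptor gene Il1r2, which neighbours Il1r1 (chromosome 1, 40084692 to 40125230), rose. It had 249, 96.2 and 52.5 normalized reads in the knockout libraries, against 1.06, 5.87 and 7.29 in the wild-type libraries. The lowest knockout library was 7.21-fold above the highest wild-type library, which rests on 15 reads over the wild-type libraries and 386 over the knockout libraries. Means were 133 ± 103 in the knockout and 4.74 ± 3.26 in the wild type (SD, n = 3 each), a ratio of 28.0, with a log2 change of 4.48 (SE 0.69, limma adjusted p = 0.00407). Without knockout replicate 1 the ratio of means was 15.7 and the log2 change 3.88 (limma adjusted p = 0.00574, with the minimum applied to 2 libraries), and without wild type replicate 1 the log2 change was 3.86 (limma adjusted p = 0.0149).

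The co-receptor gene Il1rap (chromosome 16, 26581509 to 26730128) did not pass the threshold. It had 121.6, 67.3 and 69.7 normalized reads in the knockout libraries and 82.8, 60.6 and 81.1 in the wild-type libraries. Only knockout replicate 1 lay above the wild-type range. The means of 86.2 ± 30.7 in the knockout and 74.8 ± 12.3 in the wild type (SD, n = 3 each) differed by a log2 change of 0.16 with a 95% interval of -0.47 to 0.79 (limma adjusted p = 0.673), and without knockout replicate 1 the change turned to -0.11 (limma adjusted p = 0.740). An antisense gene, Gm20319, overlaps it.

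Of the remaining receptors, Sigirr, a single-domain inhibitory receptor of the family known from gut epithelium, averaged 399.7 ± 68.7 in the knockout and 408 ± 40.9 in the wild type (SD, n = 3 each), with a log2 change of -0.04 and a 95% interval of -0.40 to 0.32 (limma adjusted p = 0.858). Il1rapl1 had 0 reads in the knockout and 1 in the wild-type libraries, and Il1rapl2 had none. Of the 11 ligand and receptor genes outside the family list, 4 were thus tested and 1 rose (25.0%, against 15.0% of all tested genes), Il18rap. It passed the minimum only through the knockout libraries and could not be tested once any of them was left out. With the minimum applied to 2 libraries its log2 change was 3.43 to 4.31 without 1 knockout library (limma adjusted p from 0.00831 to 0.0127).

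**Figure D2:**
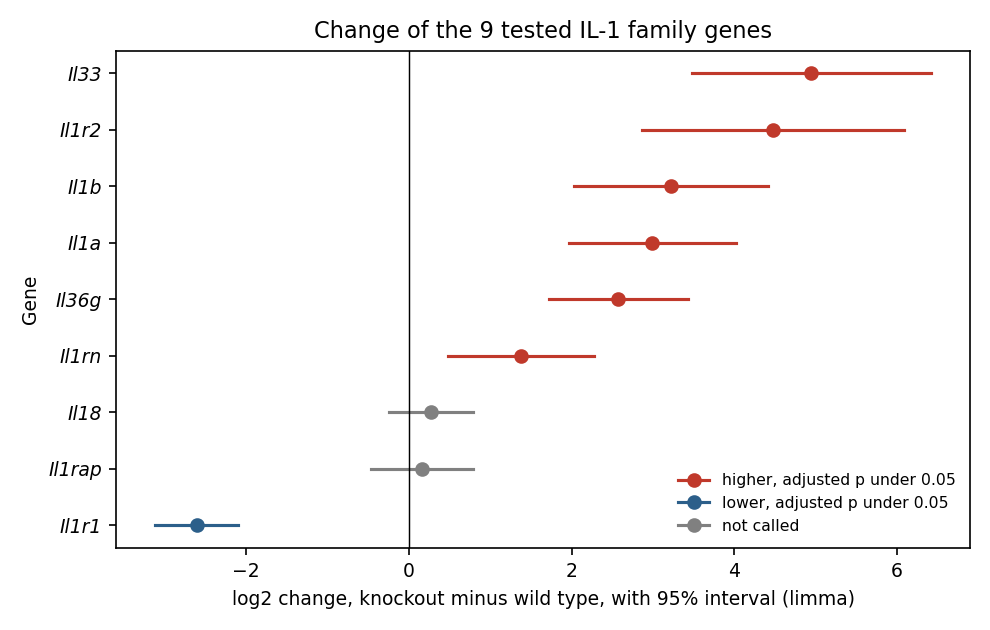
The log2 change (x axis, knockout minus wild type, on the log2(normalized reads + 1) scale) of the 9 tested members, with the 95% interval of the limma fit. The changes run from 4.95 for Il33 to -2.61 for Il1r1, and only the intervals of Il18 and Il1rap cross 0.

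Levels were compared between members as normalized reads per kb of exon. In the knockout cells the order of mean levels was Il18 at 908, Il1b at 679, Il1rn at 463, Il1a at 170.1, Il33 at 146, Il1r2 at 69.6, Il36g at 52.7, Il1rap at 7.59, Il1r1 at 5.17 and Il36a at 1.18 per kb. The library ranges of neighbours in this order overlapped except between Il1rn and Il1a, between Il36g and Il1rap, between Il1rap and Il1r1 and between Il1r1 and Il36a. In the wild-type cells it was Il18 at 742, Il1rn at 202, Il1b at 60.9, Il1r1 at 32.9, Il1a at 21.9, Il36g at 8.003, Il1rap at 6.59, Il33 at 2.96, Il1r2 at 2.48 and Il36a at 0 per kb. There the ranges overlapped between Il1b and Il1r1, Il1r1 and Il1a, Il36g and Il1rap, and Il33 and Il1r2. Il18 thus had the highest mean level per kb in both groups, and that of Il1r1 ranked 9 of 10 in the knockout and 4 of 10 in the wild type. Without division by length, mean normalized reads of Il1rn were above those of Il18, 2561 against 936 in the knockout and 1120 against 765 in the wild type.

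The balance between members differed between the groups, as a description of levels per kb without a test. The antagonist-to-agonist ratio, Il1rn over the sum of Il1a and Il1b, was 0.321, 1.10 and 0.758 in the knockout libraries and 3.06, 1.18 and 3.15 in the wild-type libraries. The knockout ratios all lay below the wild-type ratios, though knockout replicate 2 and wild type replicate 2 were close. Although Il1rn was higher in the knockout libraries, its agonists were higher by more. Per kb, the agonist transcripts exceeded it in knockout replicates 1 and 3 and in none of the wild-type libraries. That crossing depends on the exon lengths used, 5535 bases for Il1rn, 1974 for Il1a and 1907 for Il1b. Without division by length, Il1rn had 2796 normalized reads in knockout replicate 1, against 499 of Il1a and 2521 of Il1b. In knockout replicate 3 it had 2281, against 290 of Il1a and 756 of Il1b.

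The decoy-to-receptor ratio, Il1r2 over Il1r1, was 28.3, 9.69 and 4.83 in the knockout libraries, against 0.0131, 0.109 and 0.136 in the wild-type libraries. Decoy transcripts outnumbered those of the signalling receptor in every knockout library and in no wild-type library. Il1rap over Il1r1 was 2.32, 1.14 and 1.08 in the knockout libraries and 0.171, 0.190 and 0.254 in the wild-type libraries, so the co-receptor transcript exceeded its partner only in the knockout libraries. The ratio of Il1b to Il1a overlapped between the groups, at 5.23, 2.87 and 2.70 in the knockout libraries and 3.50, 3.60 and 2.12 in the wild-type libraries.

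**Figure D3:**
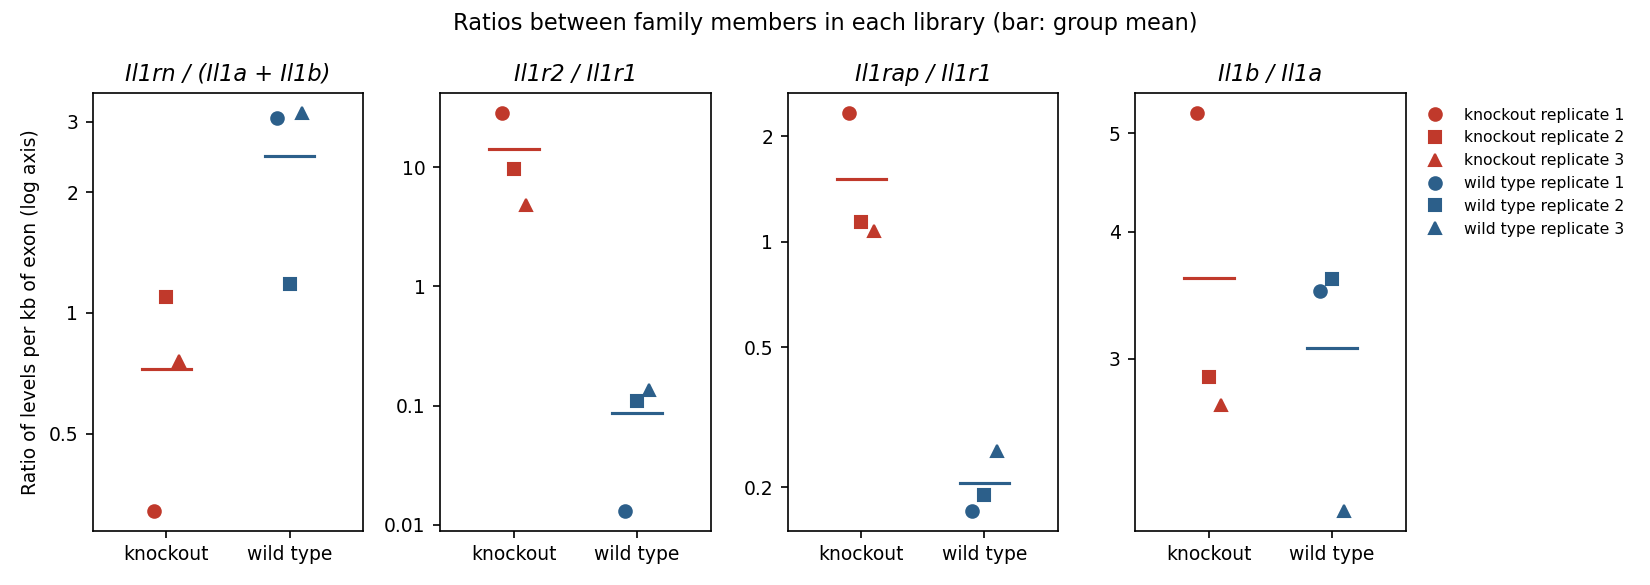
Ratios of levels per kb of exon (log y axes) in each knockout and wild-type library, for antagonist over agonists, decoy over signalling receptor, co-receptor over signalling receptor, and Il1b over Il1a; each point is 1 library and each bar a group mean. The first 3 ratios separate the groups without overlap, and the fourth does not.

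IL-1 beta and IL-18 are cut by caspase-1 in inflammasomes and leave cells through gasdermin pores, and IL-1 alpha is cut by calpains. In a list of 26 genes of these steps, 23 were tested, with 8 higher (34.8%, against 15.0% of all tested genes), 3 lower (13.0%, against 15.4% of all tested genes), 12 not called and a median log2 change of 0.19. The pore gene Gsdmd rose, averaging 3745 ± 339 in the knockout and 1497 ± 240 in the wild type (SD, n = 3 each, limma adjusted p = 0.00107). The inflammasome sensor gene Nlrp3 had 235, 76.6 and 78.3 normalized reads in the knockout libraries and 11.7, 14.7 and 20.04 in the wild-type libraries (log2 change 2.81, limma adjusted p = 0.00465).

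In the NAIP and NLRC4 inflammasome, Nlrc4 rose by a smaller log2 change of 0.72 (limma adjusted p = 0.0120) and Naip1 by 0.67 (limma adjusted p = 0.00959). Naip1 is one of several close paralogs whose reads may be shared. Capn2, a calpain, averaged 2986 ± 479 in the knockout and 1095 ± 310 in the wild type (SD, n = 3 each, limma adjusted p = 0.00310). Casp8 and Nlrp1a also rose. Among the lowered members were the adaptor gene Pycard (log2 change -0.45, limma adjusted p = 0.0305) and Gsdme.

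Casp1, the caspase that cuts both cytokines, was not called, with 1846, 1883 and 1873 normalized reads in the knockout libraries and 1699, 1667 and 1653 in the wild-type libraries (log2 change 0.16, limma adjusted p = 0.203). The abundant genes Capn1 (2172 ± 144 in the knockout and 2316 ± 188 in the wild type, SD, n = 3 each) and Nlrp6 (1635 ± 560 in the knockout and 2454 ± 408 in the wild type, SD, n = 3 each) were not called either (limma adjusted p = 0.546 and 0.102). When wild type replicate 1 was left out, 4 rose and 0 fell, and when wild type replicate 2 was left out, 0 fell.

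Downstream of the receptors, 26 of 27 listed genes were tested, with 7 higher (26.9%, against 15.0% of all tested genes), 4 lower (15.4%, the same share as over all tested genes), 15 not called and a median log2 change of 0.21. The clearest was a fall of Peli2, one of the Pellino ubiquitin ligases that act on IRAK kinases, with 14.7, 24.8 and 26.7 normalized reads in the knockout libraries and 184, 217 and 129 in the wild-type libraries (log2 change -2.96, SE 0.30, limma adjusted p = 0.000919). The other changes called were small apart from that of the p38 kinase activator Map2k6, which averaged 122 ± 54.3 in the knockout and 291 ± 25.4 in the wild type (SD, n = 3 each, limma adjusted p = 0.0234). The kinase gene Irak2 fell by 0.50 on the log2 scale (limma adjusted p = 0.0285), and Tab1 also fell.

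Irak4, the first kinase recruited by MyD88, rose with a log2 change of 0.50 (limma adjusted p = 0.00933), Map2k4 with 0.58 (limma adjusted p = 0.0106) and the ubiquitin conjugation cofactor Ube2v1 with 0.38 (limma adjusted p = 0.0226). Map3k8, Mapk8, Map2k3 and Tab3 also rose. The adaptor gene Myd88 had 740, 480.1 and 532 normalized reads in the knockout libraries and 558, 499.7 and 559 in the wild-type libraries, with overlap (limma adjusted p = 0.698). The abundant Ube2n and Tab2 were not called (limma adjusted p = 0.0565 and 0.876). The number called higher in this list depended on which libraries were used. Omitting wild type replicate 1, 2 or 3 in turn left 0, 2 or 3. Over all tested genes the same omissions took the number called higher from 1931 to 924, 967 or 1597. Omitting knockout replicate 1 left 3 genes of this list called higher and omitting knockout replicate 3 left 4. TMM scaling or no minimum also gave 4. Of the lowered genes 1 was left when wild type replicate 1 or 2 was omitted and 2 when knockout replicate 2 was.

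Most tested genes known to be induced by IL-1 rose. A list of 32 genes was taken that IL-1 is known to induce in epithelial or stromal cells, most of which also respond to other signals. Of these 27 were tested, with 20 higher (74.1%, against 15.0% of all tested genes) and 0 lower (against 15.4% of all tested genes). Another 7 were not called, and the median log2 change of the tested genes was 2.11. Ccl20, a chemokine for CCR6-bearing lymphocytes and dendritic cells, had 88.1, 72.4 and 71.6 normalized reads in the knockout libraries and 8.49, 7.82 and 8.20 in the wild-type libraries (log2 change 3.09, limma adjusted p = 0.000445). Both groups were tight for this gene. Saa3, an acute-phase protein gene, had 617, 895 and 537 normalized reads in the knockout libraries and 119, 161 and 189 in the wild-type libraries (log2 change 2.11, limma adjusted p = 0.00133).

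Lcn2, the iron-siderophore binding protein lipocalin-2, had 139, 337 and 66.8 normalized reads in the knockout libraries and 2.12, 4.89 and 0.911 in the wild-type libraries (log2 change 5.49, limma adjusted p = 0.00149). The collagenase gene Mmp13 had 86 reads over the knockout libraries and 1 over the wild-type libraries, a ratio of 88.8 with an exact 95% interval of 15.5 to 3546 for counting error only (limma adjusted p = 0.00134). The calprotectin genes S100a8 and S100a9, which are also neutrophil markers, were the other genes with the smallest adjusted p (limma adjusted p = 0.000322 and 0.000919). The feedback inhibitor gene Nfkbia had 6332, 4658 and 6933 normalized reads in the knockout libraries and 4032, 5416 and 4742 in the wild-type libraries, overlapping (limma adjusted p = 0.201), and Nfkbiz averaged 2867 ± 1049 in the knockout and 1677 ± 82.8 in the wild type (SD, n = 3 each, limma adjusted p = 0.0873). Of the 20 that rose, 4 passed the minimum only through the knockout libraries, Ccl20, Lcn2 and Mmp13 among them, and so had to be higher to be tested. Of the other 23 tested, 16 rose. Without knockout replicate 3, 13 of the list rose, and those 4 could then not be tested.

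**Figure D4:**
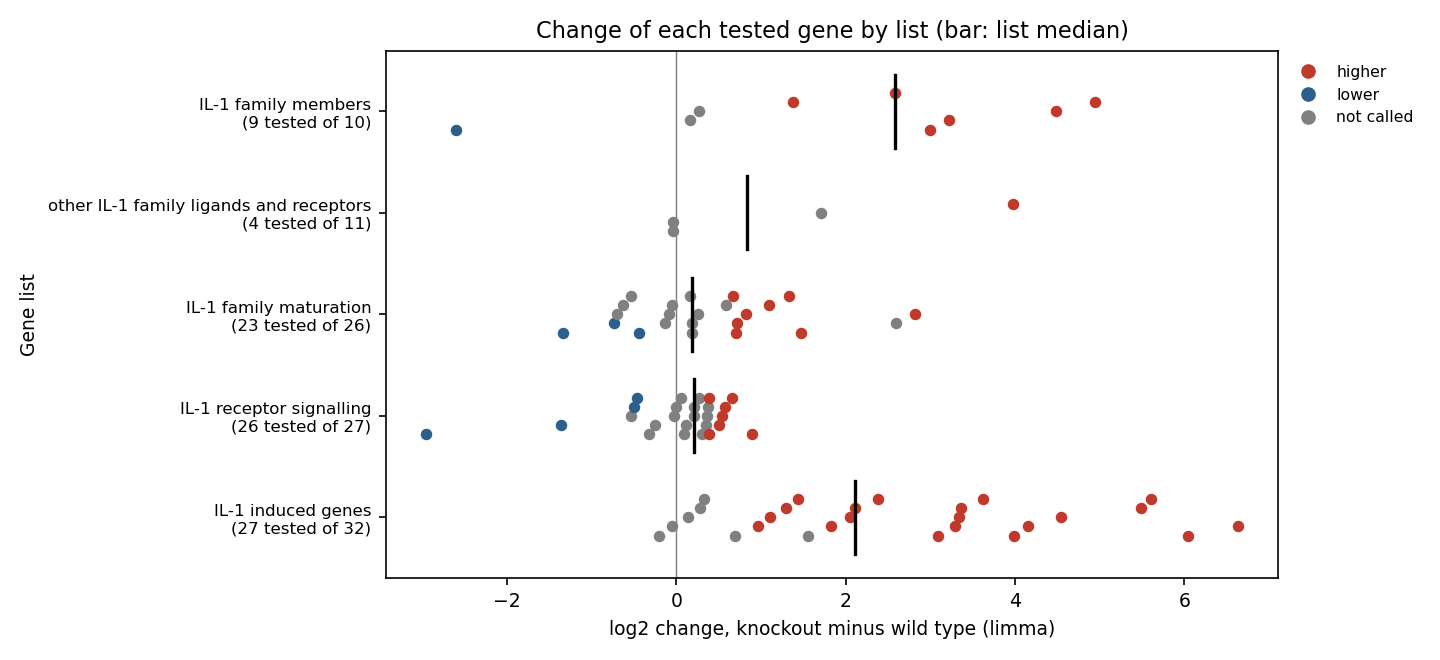
The log2 change (x axis, knockout minus wild type) of each tested gene in 5 gene lists, coloured by its limma call, with a bar at the list median. The medians are 2.58 for the IL-1 family members, 0.83 for other ligands and receptors, 0.19 for maturation, 0.21 for receptor signalling and 2.11 for genes known to be induced by IL-1, against 0.01 for all tested genes.

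Among markers of other cells, the neutrophil and the monocyte and macrophage sums were higher in every knockout library than in any wild-type library. Endothelial sums were also higher, by a narrow margin that rested on Lyve1. The squamous, fibroblast and smooth muscle, lymphocyte and mast cell sums overlapped. Neutrophils, monocytes and macrophages are known sources of Il1b, Il1a, Il1rn and Il1r2, and stratified squamous epithelium is a known source of Il1a, Il1rn, Il33 and Il36g. The summed level of the neutrophil markers was 1634 to 6158 normalized reads in the knockout libraries and 129 to 191 in the wild-type libraries. Most of each knockout sum came from S100a8 (2129, 953 and 599) and S100a9 (2330, 860 and 377), both also in the list of genes induced by IL-1. Of the neutrophil markers, all 11 tested of 17 listed rose (100%, against 15.0% of all tested genes). The granule genes Mpo and Elane, however, were at 0 in every library. Of these 11, 7 passed the minimum only through the knockout libraries and so had to be higher to be tested. The other 4 also rose, and 4 were called higher when knockout replicate 1, 2 or 3 was left out. The monocyte and macrophage markers summed to 2667 to 5984 in the knockout libraries and 639 to 1359 in the wild-type libraries. Of 16 tested, 10 rose (62.5%, against 15.0% of all tested genes), led by Ly6c2 (1213 ± 508 in the knockout and 35.9 ± 21.3 in the wild type, SD, n = 3 each, limma adjusted p = 0.00102).

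Among the squamous markers, 3 of 11 tested rose (27.3%, against 15.0% of all tested genes), Krt13, Ly6d and Krt6a. Krt13 passed the minimum only through the knockout libraries and so had to be higher to be tested. Of the other 10 tested, 2 rose. The sums overlapped at 1948 to 7495 in the knockout libraries and 1183 to 2698 in the wild-type libraries. Krtdap, Calml3 and Sprr3 were at 0 in every library. The stratified epithelium factor gene Trp63 had 2.10, 0 and 1.91 normalized reads in the knockout libraries and 0 in each wild-type library, and the basal keratin gene Krt5 had 41.9, 6.21 and 7.64 in the knockout libraries and 0, 1.96 and 2.73 in the wild-type libraries. Squamous markers that rose numbered 5 with no minimum, with edgeR or with DESeq2, and 1 without knockout replicate 3.

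Fibroblast and smooth muscle markers overlapped in sum, at 1096 to 3176 in the knockout libraries and 751 to 1392 in the wild-type libraries. Of 10 tested, 2 rose, Vim and Dcn (20%, near the 15.0% of all tested genes). Lymphocyte markers summed to 266 to 603 in the knockout libraries and 163 to 306 in the wild-type libraries. Of 6 tested, 1 was higher (16.7%, near the 15.0% of all tested genes), the pan-leukocyte gene Ptprc (157 ± 82.4 in the knockout and 42.3 ± 8.49 in the wild type, SD, n = 3 each, limma adjusted p = 0.00959). Mast cell markers summed to 263 to 538 in the knockout libraries and 308 to 501 in the wild-type libraries, with Ms4a2 at 0 throughout. Of 5 tested, 3 rose (60%, against 15.0% of all tested genes), including the protease genes Mcpt2 and Cma1. Another 1 fell (20%, against 15.4% of all tested genes), Kit, which is also expressed by other gut cells. The 3 that rose passed the minimum only through the knockout libraries, so they could not be tested once any of these was left out. Endothelial markers summed to 96.4 to 198 in the knockout libraries and 82.9 to 92.9 in the wild-type libraries. Of 3 tested, 1 was higher, Lyve1 (33.3%, against 15.0% of all tested genes). Lyve1 had 44.0, 169 and 135 normalized reads in the knockout libraries and 30.8, 36.2 and 25.5 in the wild-type libraries. The median log2 change of the 3 tested endothelial markers was -0.48. For 1 of them the knockout libraries lay wholly below the wild-type libraries, as for 25.5% of all tested genes. Fibroblast and smooth muscle markers that rose numbered 4 without knockout replicate 2 and 1 without any other single library except wild type replicate 3, where 3 rose. The endothelial count was 0 when any single library other than knockout replicate 1 was omitted.

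The epithelial markers summed to 350573 to 448171 in the knockout libraries and 465622 to 478236 in the wild-type libraries. Of 12 tested, 2 rose (Krt20 and Vil1) and 3 fell (Car1 among them). These are 16.7% and 25.0%, against 15.0% and 15.4% of all tested genes. The difference in sums rested on Car1, an abundant carbonic anhydrase gene, at 22506 to 66598 in the knockout libraries and 108152 to 165972 in the wild-type libraries. Without it the sums overlapped, at 328067 to 381572 in the knockout libraries and 312265 to 357470 in the wild-type libraries, and the median log2 change of the 12 markers was 0.00. Omitting wild type replicate 1 left 1 higher and 1 lower, and omitting wild type replicate 2 left 1 and 0. Knockout replicate 1, the library highest for all 6 members that rose, also had the highest neutrophil, monocyte, squamous, fibroblast, lymphocyte and mast cell sums. It had the lowest endothelial sum of the knockout libraries (96.4). The library labelled wild type replicate 3, the highest wild-type library for 5 of those 6 members, had the highest wild-type sums of monocyte, squamous, fibroblast and lymphocyte markers. Its neutrophil sum was below that of wild type replicate 2 (186 against 191), and its mast cell and endothelial sums were the lowest of the wild-type libraries (308 and 82.9). Whether these cells supplied the transcripts of the members that rose was not tested.

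**Figure D5:**
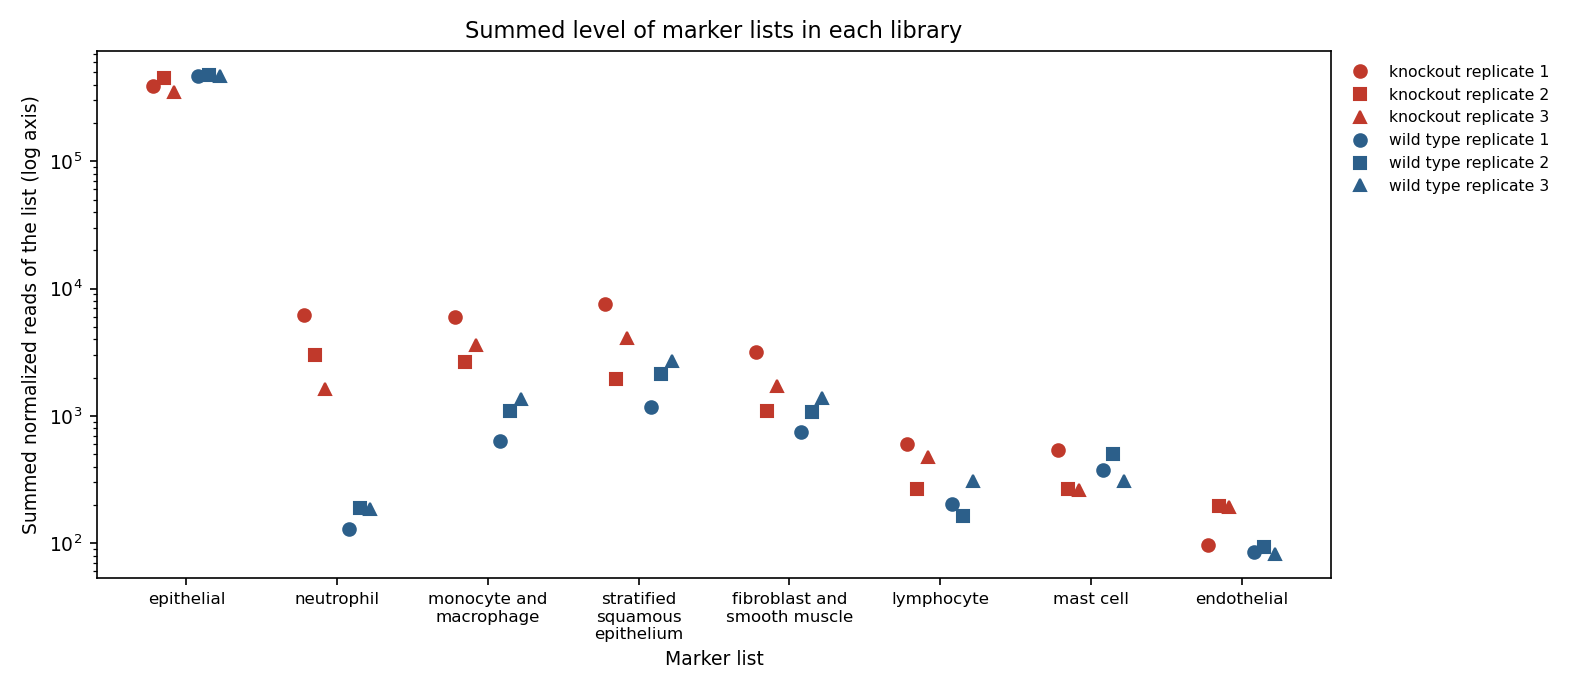
Summed normalized reads (log y axis) of 8 marker lists in each knockout and wild-type library; each point is 1 library. Neutrophil and monocyte or macrophage sums are higher in every knockout library than in any wild-type library, epithelial sums, which include the abundant Car1, are lower, and the sums of stratified squamous epithelium, fibroblast and smooth muscle, lymphocyte and mast cell markers overlap.

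Genes whose pattern was most like each tested member were found by Pearson's r of log2(normalized reads + 1) over the 6 libraries, among 10133 genes with a mean of at least 50. The search left out the family members, the other ligands and receptors, predicted genes and genes that do not code for protein. Family members could therefore not appear as matches of one another. All points share the same 6 libraries and the 2 groups, so these are descriptions. Acod1, which makes itaconate in activated macrophages, was closest to Il1b (r = 0.998), with 874, 186 and 198 normalized reads in the knockout libraries and 20.2, 37.2 and 36.4 in the wild-type libraries. Like Il1b it was highest in knockout replicate 1. Gosr2 was closest to Il1r2 (r = 0.997), Acadl to Il33 (r = 0.998), Ppp6c to Il36g (r = 0.998) and Oma1 to Il1r1 (r = 0.998).

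For Il1rn the closest was Nup62 (r = 0.991), for Il1rap Rnps1 (r = 0.992) and for Il18 Cchcr1 (r = 0.991). The second in order were Tmbim1 for Il1a, Sec1 for Il1b, Ecm1 for Il1r2, Smox for Il33, Pea15a for Il36g, Tob2 for Il1r1, Pcgf5 for Il1rn, Calu for Il1rap and Phka2 for Il18. The number of genes at an r of at least 0.99 was 62 for Il1a, 59 for Il36g, 46 for Il1b, 39 for Il33, 28 for Il1r1, 15 for Il1r2, 2 for Il1rn, 1 for Il1rap and 1 for Il18. Il1rn, whose wild-type libraries were spread widely, thus had fewer close matches than the other members that rose.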

How the data were processed

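RNA of enriched colonic epithelial cells was sequenced from 3 knockout and 3 wild-type samples, as non-stranded mRNA libraries per the labels' protocols. The submitters' processing notes name FastQC, TopHat, DESeq2 and mm10, with no versions, and the counting tool was not given in the sources used here. Deposited values are a normalized signal per gene: read counts scaled by a size factor for each library, as the values themselves and the DESeq2 entry of those notes show. In each library 100% of values were whole multiples of 1 read within 0.001, and 10089313 to 12030844 reads per library were recovered, which sets the precision of low genes. Rows are Entrez numbers, of which 23666 of 23725 matched a RefSeq symbol on GRCm38.p6, and Il36a and Il36g are listed there under older symbols. Exon lengths for levels per kb came from GENCODE M21, as the union of the exons of all transcripts of a gene.

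Genes with at least 10 normalized reads in at least 3 libraries were tested two-sided with limma 3.58.1 in R 4.3.3, with an intensity trend, on log2(value + 1), a scale that understates the change of low genes, with Benjamini-Hochberg adjustment over all 12837 genes. No gene is tested on its list alone. Count tests on the recovered reads called 1887 genes higher and 2006 lower with edgeR 4.0.16, and 2148 and 2016 with DESeq2 1.42.0, against 1931 and 1979 with limma. The scripts were tested on simulated data. Also tried were pseudocounts of 0.5 and 5, no minimum and a minimum of 50, TMM and upper-quartile scaling, and leaving out each library.

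The members and all gene lists were chosen with earlier results of these data known. Genes named from each list are all other ligands and receptors, up to 6 called genes with the smallest adjusted p and up to 2 abundant genes not called from the maturation, signalling and induced lists, up to 3 called markers per cell type and markers at 0 in all libraries, and the 2 genes most like each member. Some genes named by this rule are left out of the text. Others (Casp1, Casp8, Gsdme, Nlrp1a, Pycard, Myd88, Tab1, Tab3, Map3k8, Mapk8, Map2k3, Epcam, Krt5 and Trp63) were named after their values were seen. Replicates are numbered in accession order, which pairs no samples, and no batch is labelled. Whether libraries of a group came from separate animals is not stated, so p-values measure the spread between these samples.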

Additional observations from a re-analysis of the deposited data

How the results depend on the processing

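Il1a, Il1b, Il1r1 and Il36g kept their direction and their side of the threshold under each of 20 alternatives, and Il1r2 and Il33 under each of the 17 that could test them; Il18 stayed above the threshold in all 20. Il1rn lost its call in 11 of 20, with limma adjusted p up to 0.109. Each omission of a library enters the 20 with the minimum in 3 libraries and again with it in 2. A gene tested in both had the same log2 change, so these are not separate checks. Il1rap, never called, had log2 changes of -0.11 to 0.31 when single libraries were left out, negative without knockout replicate 1. With 1 library left out, 3 to 6 members rose. The number was 3 without any knockout library, because Il33 and Il1r2 then missed the minimum in 3 libraries and Il1rn its call, and 5 where the minimum applied to 2 libraries, which was chosen after seeing the data. Over all genes, 924 to 1599 rose and 822 to 1805 fell when single libraries were omitted, the fewest when this was wild type replicate 1; for wild type replicate 2 the counts were 967 and 848. The median change of all genes stayed within 0.03 on the log2 scale under every scaling. No paired analysis was possible because the replicate numbers are only names. With 3 libraries per group and under 30 wild-type reads for Il33 and Il1r2, their fold changes are imprecise.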
